A study of Mus musculus with 13 samples.

Results

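Transcripts of the sarcomere and its Z-disc were measured in C10 G58R OMA1+/- mouse hearts after treatment with OMA1 ASO1, OMA1 ASO2 or CTRL ASO. The 40 genes encode cardiac, fetal and skeletal muscle forms of the contractile proteins and were taken from a list of gene symbols that was drawn up with earlier results of these data known. Each of the 40 was read by 1 of the 22206 transcript clusters of a Clariom S Mouse array. Myot, the gene of the Z-disc protein myotilin, was 5.35-fold higher in hearts of OMA1 ASO-treated mice, and it was the only one of the 40 that changed when both OMA1 ASOs were pooled. With ASO2 alone, Xirp2, the gene of a Xin-repeat actin-binding protein, was 3.15-fold lower. The major contractile genes, among them Myh6, Actc1, Tnnt2, Tnni3, Myl2, Mybpc3 and Ttn, did not pass the test in any comparison.

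The sarcomere is the repeating contractile unit of heart and skeletal muscle. Myosin thick filaments pull on actin thin filaments, whose sensitivity to calcium is set by troponin and tropomyosin. The thin filaments of neighbouring sarcomeres are crosslinked at the Z-disc by α-actinin, titin spans from the Z-disc to the M-band, and desmin filaments tie Z-discs to each other and to the membrane. Filamin C, myotilin, the Xin-repeat proteins and CARP (Ankrd1) belong to the Z-disc and its repair and stretch-response machinery, and mutations in several of these genes cause myofibrillar myopathy or cardiomyopathy in humans.

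All 3 groups carried the G58R mutation of C10 (Chchd10), a mitochondrial protein whose mutation causes myopathy and cardiomyopathy, and 1 working copy of Oma1, the gene of a stress-activated protease of the inner mitochondrial membrane. An ASO is an antisense oligomer that lowers the transcript it pairs with, and CTRL ASO is a nontargeting one. Mice were injected under the skin each week with 50 mg/kg and were 33 weeks old. There were 5 arrays of OMA1 ASO1, 3 of OMA1 ASO2 and 5 of CTRL ASO, each from the heart of a different mouse. The paper reports that some OMA1 ASO-treated mice died during the treatment. By its counts fewer of them survived than there are OMA1 ASO arrays here. The sources used here do not state whether every mouse with an array completed the treatment. Hearts without the C10 mutation were not analysed here.

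A value is a log2 signal, so that a difference of 1 is a doubling, and values of different genes are not on a common scale because each cluster has its own probes. A cluster counted as above background where it exceeded the brightest of the 23 background probe-set groups of its array, a level of 5.77 to 6.07. The lowest level, 5.77, was that of OMA1 ASO2 replicate 3, on which more clusters (10069) lay above background than on any other array. An adjusted p under 0.01 over all 22206 clusters counted as a change. Oma1 was 3.74 to 5.48 on the 8 OMA1 ASO arrays, all below background, and 9.13 to 9.83 on the CTRL ASO arrays. Of 10 cardiomyocyte markers, 9 lay above background on every array, and the exception, Nkx2-5, on none. No adipocyte marker of 5 lay above background on any array. Of 3 Y-linked genes, each was above background on 2 of 5 OMA1 ASO1 arrays, 0 of 3 OMA1 ASO2 arrays and 2 of 5 CTRL ASO arrays, and the labels give no sex. In whole hearts, fewer cells of a type and less RNA per cell cannot be told apart.

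OMA1 ASO1 replicates 1 and 5 stood apart from the other arrays. Replicate 5 had a mean correlation of 0.974 with the other ASO1 arrays, and the same mean within a group was 0.984 to 0.990 for the other 12 arrays. Of the 31 genes above background on all arrays, 12 were highest and 12 lowest in their group on replicate 5. CTRL ASO replicate 3 also had 12 highest, with 7 lowest. On OMA1 ASO1 replicate 1, transcripts of fast skeletal muscle fibres were present that lay below background on the other arrays. For genes in which OMA1 ASO1 replicate 1 or 5 was far from the others, the pooled change is also given without that array.

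Of the 40 genes, 31 lay above background on all 13 arrays and 36 on at least 1. The atrial myosin light chain Myl7, the fast skeletal myosin-binding protein Mybpc2, the slow skeletal troponin Tnni1 and the fast-fibre calsarcin Myoz1 lay below background on every array. In the pooled comparison of 8 OMA1 ASO arrays with 5 CTRL ASO arrays, 1 of the 40 was called (Myot, higher), 0 were lower and 39 did not pass. Over all clusters 1.04% were called, 0.23% higher and 0.806% lower. At an unadjusted p under 0.05 in limma there were 7 of the 40, beside 12.8% of all clusters. The log2 fold change was positive for 29 of the 40 and negative for 11, with a median of 0.12. Over all clusters it was positive for 11643 and negative for 10563, with a median of 0.014. For the 31 genes above background on all arrays it was positive for 21 and negative for 10, with a median of 0.084. Myot was also the only 1 of the 40 whose OMA1 ASO arrays did not overlap the CTRL ASO arrays on the higher side, and 0 did so on the lower side. Over all clusters 0.504% did not overlap on the higher side and 1.39% on the lower.

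**Figure D1:**
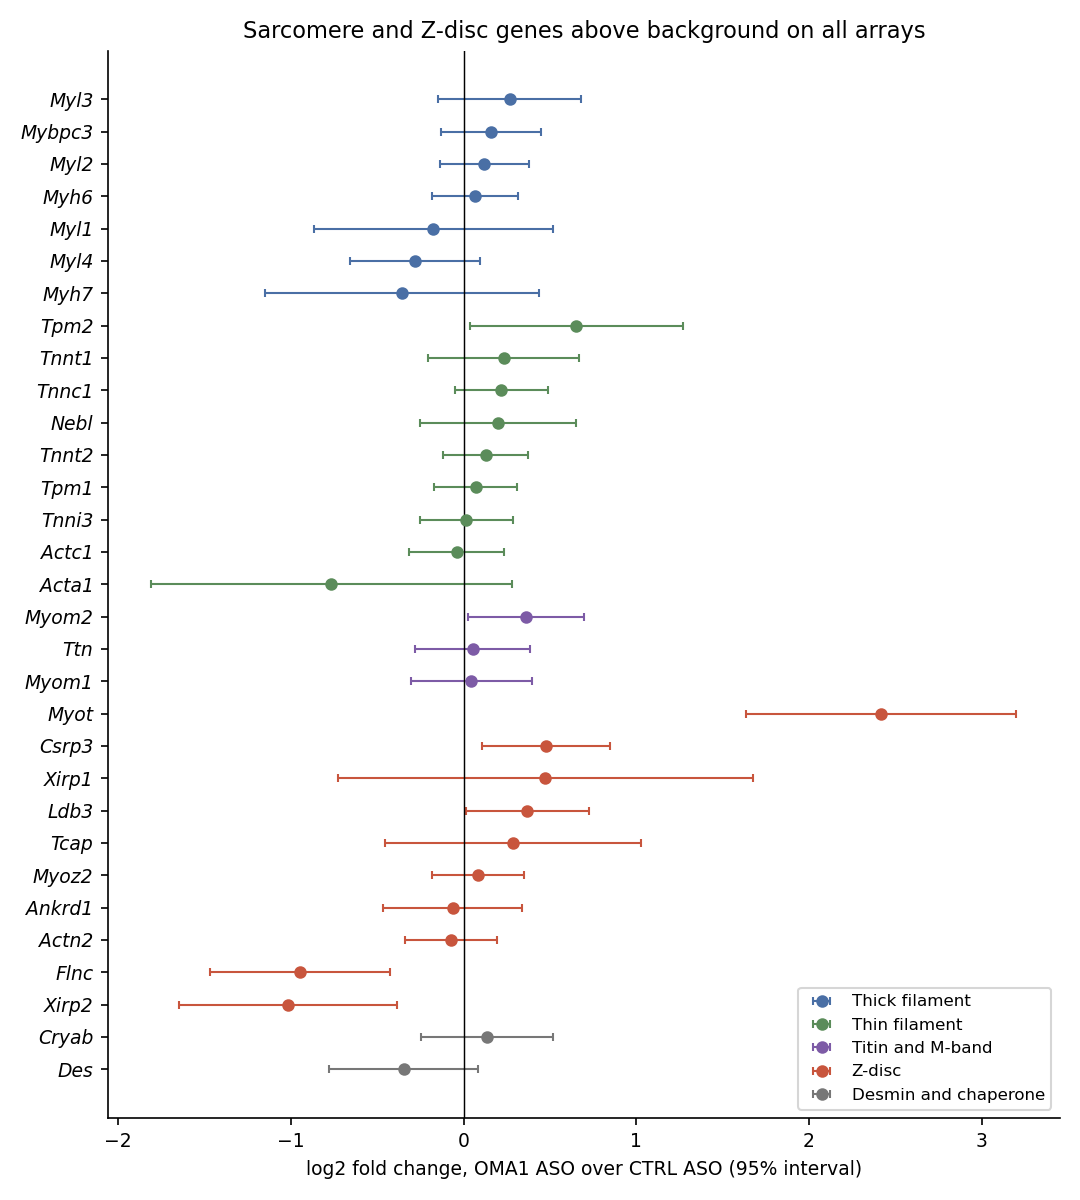
Log2 fold change of OMA1 ASO over CTRL ASO with its 95% interval from limma for the 31 genes above background on all 13 arrays, grouped by the part of the sarcomere. Myot stands at 2.42 with an interval of 1.64 to 3.20, while the intervals of most other genes include 0.

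Myotilin binds α-actinin, filamin C and actin at the Z-disc, and human mutations of its gene cause myofibrillar myopathy. Myot was at 11.71, 11.27, 10.98, 11.52 and 13.96 in ASO1 hearts and 12.19, 11.50 and 12.07 in ASO2 hearts, against 9.77, 8.99, 9.09, 9.60 and 9.94 in CTRL ASO hearts. Every OMA1 ASO heart lay above every CTRL ASO heart, with at least 1 log2 unit between the lowest OMA1 ASO and the highest CTRL ASO value. The mean was 11.90 ± 0.92 (SD, n = 8) with OMA1 ASO and 9.48 ± 0.42 (SD, n = 5) with CTRL ASO, which gave a log2 fold change of 2.42 (95% interval 1.64 to 3.20, standard error 0.371, adjusted p = 0.000946 by limma after Benjamini-Hochberg correction). An exact permutation of the arrays gave a two-sided p of 0.000777, the smallest that 1287 relabellings allow. That p is not adjusted for the 22206 clusters or for picking Myot with earlier results of these data known. Myot ranked 115 by p among the 22206 clusters.

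The rise of Myot did not rest on the high array. Without OMA1 ASO1 replicate 5 the pooled log2 fold change was 2.12 (adjusted p = 1.36e-05 by limma), and without replicates 1 and 5 it was 2.11 (adjusted p = 5.04e-05). With each ASO on its own, against the same CTRL ASO arrays, the change was 2.41 with ASO1 (standard error 0.423, adjusted p = 0.00449) and 2.44 with ASO2 (standard error 0.488, adjusted p = 0.0140), so only the change with ASO1 passed. Leaving out any of CTRL ASO replicates 1 to 4 or OMA1 ASO1 replicate 1 ended the ASO1 call (highest adjusted p 0.0179), and without OMA1 ASO1 replicate 5, whose spread both fits share, Myot passed with ASO2 too (adjusted p = 1.81e-05). ASO2 minus ASO1 was 0.03 (standard error 0.488, adjusted p = 0.993).

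**Figure D2:**
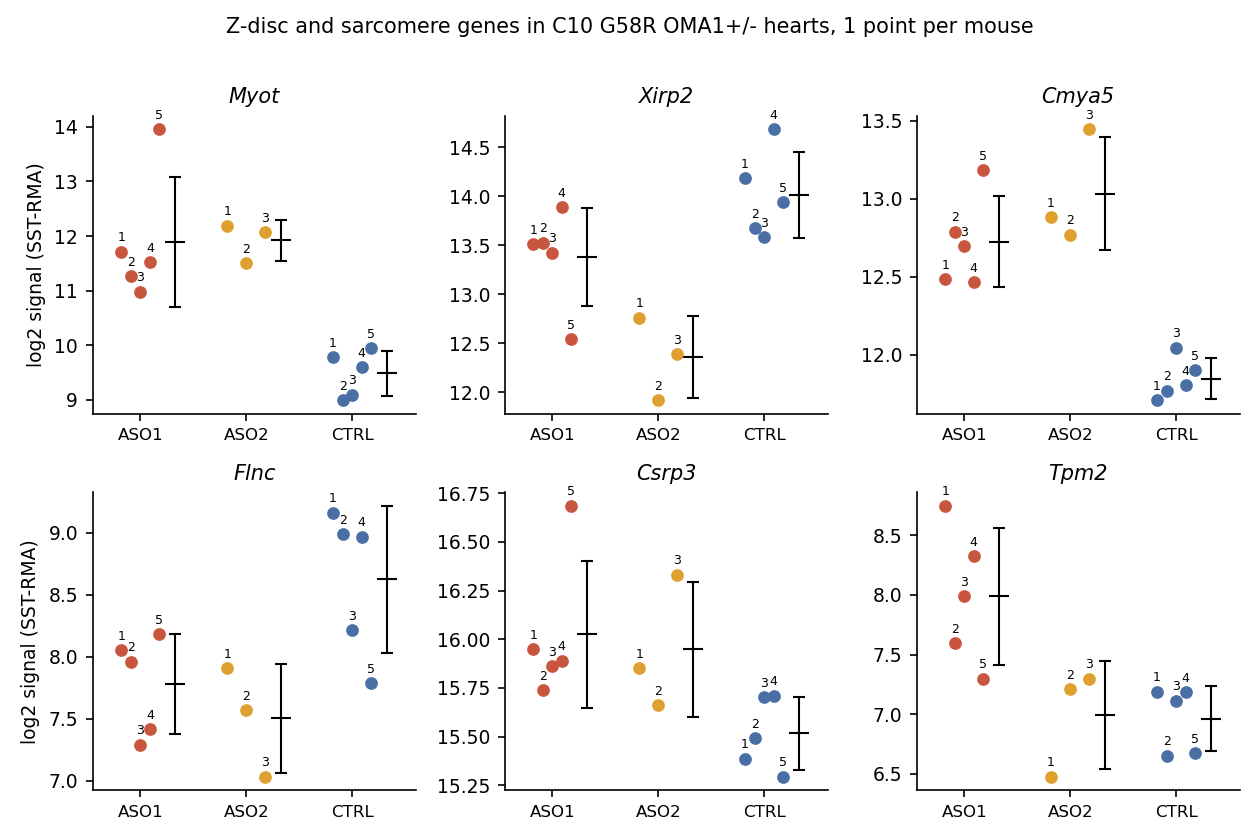
Log2 signal of 6 genes, 1 point per heart with its replicate number, in OMA1 ASO1 (5), OMA1 ASO2 (3) and CTRL ASO (5) hearts, with the mean and SD as bars beside the points. Myot and Cmya5 were higher in every OMA1 ASO heart than in any CTRL ASO heart, and Xirp2 was lower in the ASO2 hearts than in any CTRL ASO heart, while the pooled OMA1 ASO and CTRL ASO points overlap for Flnc, Csrp3 and Tpm2.

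Xirp2 binds actin through Xin repeats and is found at the Z-disc and at intercalated discs, the junctions between cardiomyocytes. Xirp2 was at 13.51, 13.53, 13.42, 13.89 and 12.54 in ASO1 hearts and 12.76, 11.92 and 12.39 in ASO2 hearts, against 14.18, 13.67, 13.58, 14.68 and 13.94 in CTRL ASO hearts. The ASO2 hearts were all below the CTRL ASO hearts, and the ASO1 hearts overlapped them through replicate 4. With ASO2 the log2 fold change was −1.66 (standard error 0.303, 95% interval −2.30 to −1.02, adjusted p = 0.00719 by limma after Benjamini-Hochberg correction). It was the only one of the 40 called with ASO2, where 0.761% of all clusters were called, 0.185% higher and 0.576% lower. With ASO1 the change was −0.63 (adjusted p = 0.326) and pooled it was −1.02 (adjusted p = 0.102), and neither passed.

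The difference of Xirp2 between the ASOs, tested itself, was −1.02 (adjusted p = 0.335 by limma), which did not pass. The ASO2 call did not outlast the loss of 1 array in 10 of 13 cases (CTRL ASO replicates 1, 2, 4 and 5, OMA1 ASO1 replicates 1, 2 and 3 and every ASO2 replicate, highest adjusted p 0.0732), and it was lost with the Y-linked genes as a covariate (adjusted p = 0.0253). The change itself was −1.44 to −1.86 over the fits that left out 1 array.

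The promoter of Xirp2 (GRCm38.p6, chr2:67445752-67446051, plus strand) is shown because Xirp2 was the only one of the called genes among the 40 with a RefSeq promoter sequence in the table used. Capitals mark a match to the MEF2 box, the site of a family of muscle transcription factors, which began 74 bases before the annotated start, and 2 overlapping matches to the E-box CANNTG, the site of basic helix-loop-helix factors.
Xirp2: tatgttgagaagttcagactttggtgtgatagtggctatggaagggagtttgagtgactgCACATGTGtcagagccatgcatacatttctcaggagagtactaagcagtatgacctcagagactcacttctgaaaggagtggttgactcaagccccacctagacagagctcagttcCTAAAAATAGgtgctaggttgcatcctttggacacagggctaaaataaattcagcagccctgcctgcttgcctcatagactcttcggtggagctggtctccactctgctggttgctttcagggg
Both strands were searched. Of the 40 genes, 30 had a promoter of 300 bases in the table and 10 did not (Tnni2, Tnnt3, Neb, Actn3, Tcap, Myot, Myoz1, Xirp1, Myom2 and Cryab). A MEF2 box was found in 4 of the 30 (Mybpc3, Myoz2, Xirp2 and Ttn), and in 3.7% of 27025 genes with a promoter. A CArG box, the site of serum response factor, was found in 7 of the 30 (Myl3, Myl7, Actc1, Acta1, Nebl, Ldb3 and Myom1) and in 1.81% of all genes. The E-box was in 27 of the 30 and in 75% of all genes. These matches are letters in a window and not measured sites.

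Of the 12 Z-disc genes, 10 lay above background on all arrays. In the pooled comparison 1 of the 12 (Myot) rose and 11 did not pass. Flnc, the gene of filamin C, which crosslinks actin and gathers at damaged Z-discs, was at 8.05, 7.96, 7.29, 7.42 and 8.18 in ASO1 hearts and 7.91, 7.57 and 7.03 in ASO2 hearts, against 9.16, 8.99, 8.22, 8.97 and 7.79 in CTRL ASO hearts. CTRL ASO replicate 5 lay among the OMA1 ASO hearts, and the other 4 CTRL ASO hearts lay above them all. The log2 fold change was −0.95 (95% interval −1.47 to −0.43), and it missed the threshold (adjusted p = 0.0551 by limma after Benjamini-Hochberg correction, 0.0142 to 0.184 over the alternatives).

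Csrp3, the gene of muscle LIM protein, a Z-disc protein needed for the response to stretch, was at 15.95, 15.74, 15.86, 15.89 and 16.69 in ASO1 hearts and 15.85, 15.66 and 16.33 in ASO2 hearts, against 15.39, 15.49, 15.70, 15.71 and 15.29 in CTRL ASO hearts. Only ASO2 replicate 2 lay within the CTRL ASO range. The change of 0.48 (95% interval 0.11 to 0.85) did not pass (adjusted p = 0.225 by limma). Without OMA1 ASO1 replicate 5, the highest array, it was 0.38.

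Ldb3, whose protein Cypher/ZASP binds α-actinin, was at 15.66, 15.57, 15.26, 15.35 and 15.18 in ASO1 hearts and 15.37, 14.89 and 15.66 in ASO2 hearts, against 15.02, 14.89, 15.46, 14.97 and 14.64 in CTRL ASO hearts. The groups overlapped, and the change of 0.37 did not pass (adjusted p = 0.368 by limma). Actn2, the cardiac α-actinin, had a change of −0.07 with a 95% interval of −0.34 to 0.20, and Myoz2, the cardiac calsarcin, 0.08 with an interval of −0.18 to 0.35.

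Ankrd1, whose protein CARP binds titin and is induced by stretch and load, was at 18.62, 19.44, 19.43, 19.34 and 19.83 in ASO1 hearts and 19.44, 19.56 and 19.24 in ASO2 hearts, against 19.31, 19.47, 18.94, 19.79 and 19.62 in CTRL ASO hearts. The groups overlapped, with a change of −0.06 (95% interval −0.47 to 0.34, adjusted p = 0.942 by limma). Its sign turned without CTRL ASO replicate 4 or OMA1 ASO1 replicate 1. Xirp1, the other Xin-repeat gene, reached 14.60 on OMA1 ASO1 replicate 5, against 9.89 to 11.01 on the other ASO1 arrays, 10.31 to 11.17 on the ASO2 arrays and 10.03 to 11.53 on the CTRL ASO arrays. Its pooled change of 0.47 did not pass, and it was −0.02 without that array. Tcap, the gene of telethonin, which caps titin at the Z-disc, varied more between hearts of 1 treatment (SD 0.745) than 97.7% of all clusters did, with a change of 0.29 (95% interval −0.45 to 1.03).

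Titin and the M-band genes were 0 higher and 0 lower of 3. Ttn had a change of 0.05 (95% interval −0.28 to 0.39) and Myom1, the main myomesin, 0.05 (95% interval −0.31 to 0.40). Myom2, the M-protein of the M-band, was at 16.33, 16.63, 16.62, 16.18 and 16.85 in ASO1 hearts and 16.37, 16.39 and 16.32 in ASO2 hearts, against 16.07, 16.09, 16.53, 15.71 and 16.09 in CTRL ASO hearts. All OMA1 ASO hearts lay above 4 of the 5 CTRL ASO hearts, and the change of 0.36 did not pass (adjusted p = 0.343 by limma).

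Of the 13 thin filament genes, 9 lay above background on all arrays, and 0 were called in either direction. The signals of the adult forms were close between treatments. Those of Tnnt2, Tpm1 and Actc1 lay within 1 log2 unit of the highest on the array, where its range limits what can be read. The log2 fold change was 0.13 for Tnnt2 (cardiac troponin T), 0.02 for Tnni3 (cardiac troponin I), 0.22 for Tnnc1 (troponin C), 0.07 for Tpm1 (α-tropomyosin) and −0.04 for Actc1 (cardiac actin), and the widest of their 95% intervals, that of Actc1, was −0.31 to 0.23. Tpm2, the gene of β-tropomyosin, was at 8.75, 7.59, 7.99, 8.33 and 7.30 in ASO1 hearts and 6.48, 7.21 and 7.30 in ASO2 hearts, against 7.19, 6.65, 7.11, 7.18 and 6.68 in CTRL ASO hearts. The ASO1 hearts lay above all CTRL ASO hearts, and the ASO2 hearts overlapped them. The change was 1.03 with ASO1 (adjusted p = 0.0519 by limma), 0.03 with ASO2 and 0.65 pooled (adjusted p = 0.355), and 0.49 pooled without OMA1 ASO1 replicate 1.

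Acta1, the skeletal actin that the fetal heart and the loaded adult heart also express, was at 13.14, 12.62, 13.27, 14.90 and 11.46 in ASO1 hearts and 11.73, 12.08 and 13.88 in ASO2 hearts, against 13.14, 13.97, 12.72, 14.96 and 13.45 in CTRL ASO hearts. Each group spanned over 2 log2 units, and the groups overlapped. The SD within treatments (1.09) was larger than that of 99.4% of all clusters, and the change of −0.77 had a 95% interval of −1.81 to 0.28 (adjusted p = 0.589 by limma). Leaving out CTRL ASO replicate 4 gave −0.44, and leaving out OMA1 ASO1 replicate 4 or 5 gave −1.05 or −0.56.

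Of the 10 thick filament genes, 7 lay above background on all arrays, and 0 were called. Myh6, the gene of the adult cardiac myosin heavy chain of mice, was at 19.55, 19.56, 19.68, 19.57 and 19.50 in ASO1 hearts and 19.57, 19.50 and 19.59 in ASO2 hearts, against 19.50, 19.32, 19.58, 19.51 and 19.60 in CTRL ASO hearts. These values lay within 0.353 of each other, a change of 0.06 (95% interval −0.18 to 0.31, adjusted p = 0.899 by limma). The highest signal of any cluster was 19.78 to 19.93 on each array, and 7 of the 40 (Myh6, Myl2, Actc1, Tnnt2, Tpm1, Myoz2 and Ankrd1) had signals within 1 log2 unit of it, where the range of the array limits what can be read.

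Myh7, the slow and fetal myosin heavy chain, was at 17.88, 17.69, 17.49, 16.00 and 19.00 in ASO1 hearts and 18.42, 18.16 and 16.90 in ASO2 hearts, against 17.45, 18.51, 17.68, 18.41 and 18.18 in CTRL ASO hearts. The lowest and the highest heart were both of ASO1, and the change of −0.36 had a 95% interval of −1.15 to 0.44 (adjusted p = 0.783 by limma). It was −0.11 without OMA1 ASO1 replicate 4, the lowest heart, and −0.54 without replicate 5, the highest. Hearts of 1 treatment differed in Myh7 by an SD of 0.824, more than in 98.5% of all clusters, and in Myh6, whose signals lay near the top of the range of the array, by an SD of 0.0825, more than in 0.104%. The ventricular light chains Myl2 and Myl3 had changes of 0.12 and 0.27, Mybpc3, the gene of cardiac myosin-binding protein C, 0.16, and the atrial light chain Myl4 −0.28. For Myl3 the change was 0.50 with ASO1 (adjusted p = 0.234 by limma) and −0.12 with ASO2 (adjusted p = 0.887), and ASO2 minus ASO1 was −0.62 (95% interval −1.06 to −0.19, adjusted p = 0.406), none of which passed.

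The promoter of Myh6 (GRCm38.p6, chr14:54966558-54966857, minus strand) is shown as that of the main myosin heavy chain gene of the adult mouse heart. Capitals mark MCAT (CATTCC, read here on the other strand), the site of TEAD factors, an E-box, and TATAAA just past the annotated start.
Myh6: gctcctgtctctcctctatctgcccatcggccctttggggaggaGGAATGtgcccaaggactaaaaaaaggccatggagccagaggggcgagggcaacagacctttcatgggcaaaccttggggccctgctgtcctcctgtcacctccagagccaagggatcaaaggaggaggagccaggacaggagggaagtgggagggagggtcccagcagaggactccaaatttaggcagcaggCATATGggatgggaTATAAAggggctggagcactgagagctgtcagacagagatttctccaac
MCAT was found in 14 of the 30 genes with a promoter and in 16.6% of all genes, and TATAAA in 6 of the 30 and in 15.7% of all genes.

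**Figure D3:**
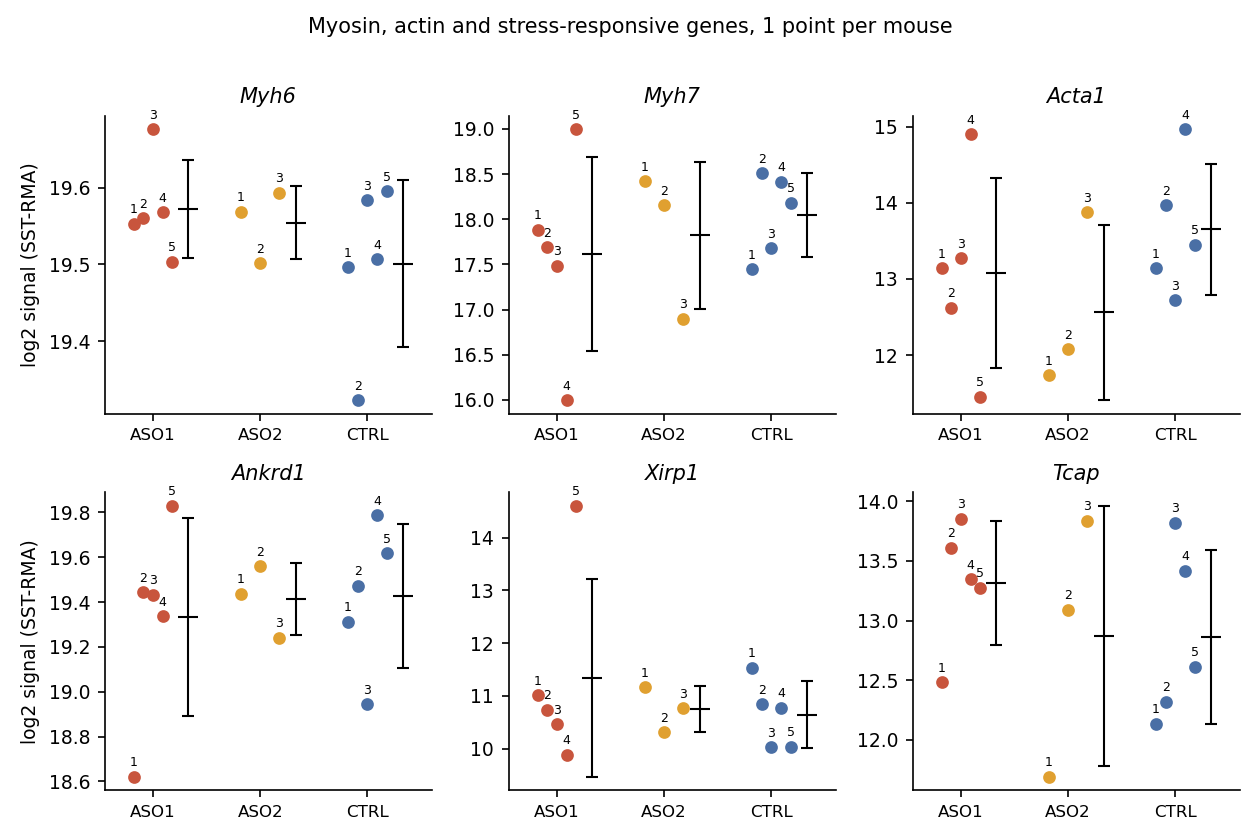
Log2 signal of Myh6, Myh7, Acta1, Ankrd1, Xirp1 and Tcap, 1 point per heart with its replicate number, in OMA1 ASO1, OMA1 ASO2 and CTRL ASO hearts, with the mean and SD as bars beside the points. The groups overlap in all 6 panels, each of which has its own scale, and Xirp1 stands at 14.60 on OMA1 ASO1 replicate 5.

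Des, the gene of desmin, had a change of −0.35 (95% interval −0.78 to 0.08, adjusted p = 0.531 by limma), which was −0.44 without OMA1 ASO1 replicate 5, and Cryab, the gene of αB-crystallin, a small heat shock protein that protects desmin and titin, had a change of 0.13 (95% interval −0.25 to 0.52). Neither passed with either ASO.

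By the muscle in which they are best known, 8 genes are adult ventricular forms, and these were 0 higher and 0 lower, with log2 fold changes of −0.04 to 0.27. The 4 fetal or slow forms, of which 3 lay above background, were 0 higher and 0 lower, with changes of −0.77 to 0.23. Of the 7 fast skeletal forms, 0 were called. Only Myl1, an essential light chain of fast fibres, lay above background on all 13 arrays. It was at 15.40, 14.69, 14.04, 14.21 and 13.68 in ASO1 hearts and 15.73, 15.49 and 15.25 in ASO2 hearts, against 15.61, 14.72, 14.32, 15.23 and 15.05 in CTRL ASO hearts. The groups overlapped, with changes of −0.58 with ASO1 (adjusted p = 0.459 by limma), 0.51 with ASO2 (adjusted p = 0.624) and −0.17 pooled. ASO2 minus ASO1 was 1.09 (95% interval 0.37 to 1.80, adjusted p = 0.372 by limma), which did not pass. Mybpc2 and Myoz1 lay below background on every array, as above, and the other 4 forms (Tnnt3, Tnni2, Mylpf and Actn3) were highest on OMA1 ASO1 replicate 1.

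Tnnt3, the fast skeletal troponin T, was at 11.16, 4.13, 4.32, 4.27 and 4.10 in ASO1 hearts and 3.91, 3.69 and 3.36 in ASO2 hearts, against 3.60, 3.85, 4.40, 3.10 and 3.93 in CTRL ASO hearts. All but OMA1 ASO1 replicate 1 were below background, so no fold is given.

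On that array Tnni2, the fast troponin I, was at 9.63, Mylpf, the fast regulatory light chain, at 8.99, and Neb, the gene of nebulin, at 7.70, and these too lay below background on every other array. Actn3, the α-actinin of fast fibres, was at 8.27, 6.15, 6.83, 6.27 and 6.03 in ASO1 hearts and 6.41, 6.34 and 6.23 in ASO2 hearts, against 5.87, 6.23, 5.76, 6.12 and 5.91 in CTRL ASO hearts. Apart from OMA1 ASO1 replicate 1 it was close to background, and its change of 0.59 (adjusted p = 0.422 by limma) was 0.34 without OMA1 ASO1 replicate 1.

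Genes outside the 40 did the same on OMA1 ASO1 replicate 1. The fast myosin gene Myh4 was at 11.95 there and at 4.20 to 5.38 elsewhere, the fast calcium pump Atp2a1 at 9.67 and at 3.97 to 4.99 elsewhere, and parvalbumin (Pvalb) at 6.52 and at 3.70 to 4.34 elsewhere. Of 10 skeletal muscle markers, 2 to 3 lay above background on the ASO1 arrays and 2 on each ASO2 and CTRL ASO array. Their summed level was 17.44 to 17.89 on the ASO1 arrays, 17.65 to 17.72 on the ASO2 arrays and 17.54 to 17.65 on the CTRL ASO arrays, most of it from Pygm, which the heart also expresses. The muscle regulatory genes Myod1, Myf6 and Myog lay below background on all arrays. The source of these transcripts was not tested.

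**Figure D4:**
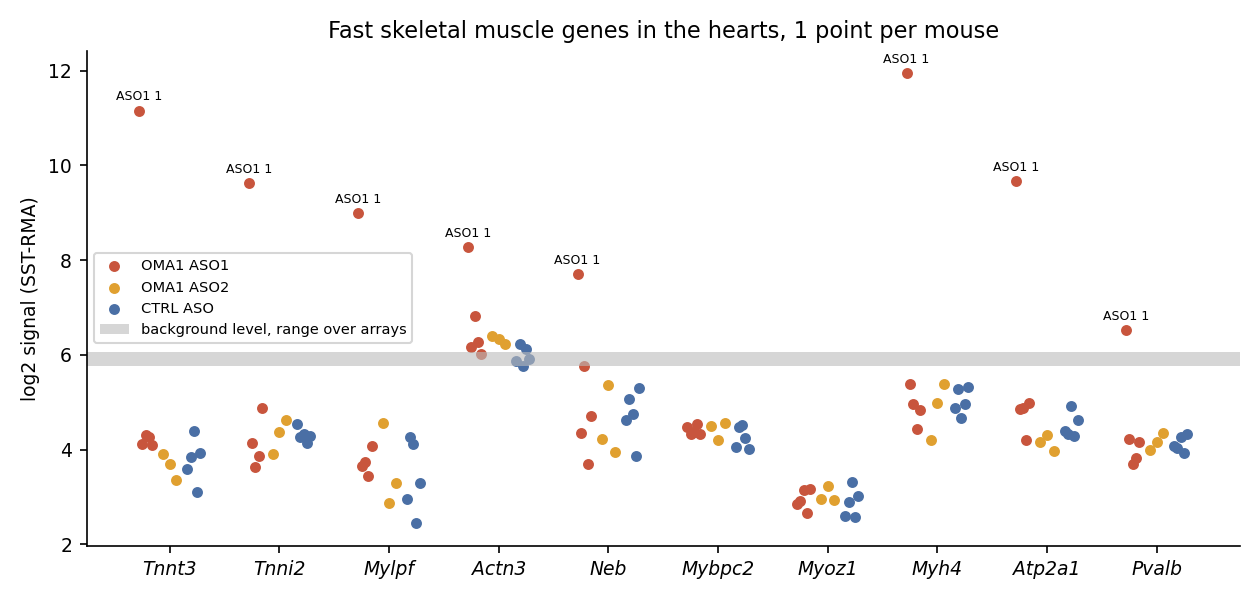
Log2 signal of 7 genes among the 40 that mark fast skeletal muscle or were hardly measured (Tnnt3, Tnni2, Mylpf, Actn3, Neb, Mybpc2 and Myoz1) and of 3 other fast-fibre genes, 1 point per heart, with the background level as a grey band (5.77 to 6.07). OMA1 ASO1 replicate 1 is the only array above the band for Tnnt3, Tnni2, Mylpf, Neb, Myh4, Atp2a1 and Pvalb.

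With ASO1 against CTRL ASO, Myot was the only one of the 40 called, where 0.919% of all clusters were called, 0.198% higher and 0.721% lower. The ASO1 and CTRL ASO arrays did not overlap for 3 of the 40 on the higher side (Myot, Tpm2 and Csrp3) and for 0 on the lower, beside 1.47% and 2.39% of all clusters. With ASO2 they did not overlap for 6 on the higher side and 1 (Xirp2) on the lower, beside 4.25% and 4.81% of all clusters. Both comparisons use the same CTRL ASO arrays.

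ASO2 set against ASO1 directly called 0 of the 40, where 0.104% of all clusters were called, 0.0675% higher and 0.036% lower, with 6 of the 40 and 7.78% of all clusters at an unadjusted p under 0.05 in limma. The smallest adjusted p, 0.205, was that of Nebl, the gene of nebulette, a nebulin relative of the cardiac Z-disc, chosen after its values were seen. The 2 groups did not overlap for 2 of the 40 on the higher side and 1 on the lower, beside 2.53% and 2.31% of all clusters. Nebl was at 17.71, 17.79 and 17.44 in ASO2 hearts, against 17.04, 17.13, 16.88, 16.99 and 16.29 in ASO1 hearts, a difference of 0.78 (95% interval 0.35 to 1.22), and the groups did not overlap. The CTRL ASO hearts were at 16.95, 16.84, 17.05, 16.79 and 17.16. Against them the change was 0.69 with ASO2, without overlap (95% interval 0.26 to 1.12, adjusted p = 0.127 by limma). With ASO1 it was −0.09 (adjusted p = 0.900), and neither passed. For Tpm2 the 95% interval of the difference between ASO2 and ASO1 was −1.62 to −0.37 (adjusted p = 0.338 by limma).

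A second list of 54 genes of the sarcomere and its turnover, of which 52 were analysed here, showed 1 higher (Cmya5), 0 lower and 51 not called in the pooled comparison. Of the 52, 36 lay above background on all arrays. The median log2 fold change was 0.18, with 38 positive and 14 negative. Over all clusters the median was 0.014, with 11643 positive and 10563 negative. The groups did not overlap for 4 of the 52 on the higher side and 1 on the lower. Over all clusters 1.04% were called, and 0.504% did not overlap on the higher side and 1.39% on the lower. Cmya5 encodes myospryn, a large protein of the costamere and Z-disc that binds α-actinin and titin. Cmya5 was at 12.48, 12.79, 12.70, 12.47 and 13.18 in ASO1 hearts and 12.88, 12.77 and 13.44 in ASO2 hearts, against 11.71, 11.77, 12.05, 11.80 and 11.90 in CTRL ASO hearts. All OMA1 ASO hearts lay above all CTRL ASO hearts, 1.99-fold on average (log2 fold change 0.99, standard error 0.169, adjusted p = 0.00270 by limma after Benjamini-Hochberg correction). Leaving out CTRL ASO replicate 1, 2 or 4 ended this call (highest adjusted p 0.0128). The change was 0.88 with ASO1 (adjusted p = 0.0155) and 1.19 with ASO2 (adjusted p = 0.00545). The ASO2 call was lost with the replicate number as a block (adjusted p = 0.0117), with the Y-linked genes as a covariate (adjusted p = 0.0130) and without CTRL ASO replicate 1, 2, 4 or 5 or any ASO2 replicate (highest adjusted p 0.0442).

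The next genes of this list did not pass. Synpo2l, an actin-bundling relative of synaptopodin, was at 11.00, 10.63, 10.33, 11.12 and 11.12 in ASO1 hearts and 10.92, 9.87 and 10.72 in ASO2 hearts, against 12.64, 11.64, 11.25, 12.89 and 11.68 in CTRL ASO hearts, with no overlap and a change of −1.31 (adjusted p = 0.0148 by limma). Tmod4, a tropomodulin that caps thin filaments, had a change of 1.25 (adjusted p = 0.0707), and the tropomyosins Tpm4 and Tpm3 had changes of 0.75 (adjusted p = 0.0762) and 0.73 (adjusted p = 0.0813). Myh8, a perinatal myosin of this list, shares much of its sequence with Myh4, so its 11.00 on OMA1 ASO1 replicate 1 is uncertain.

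Markers of other cells also differed in level between hearts. In the atrial list of 6 measured genes, Bmp10 was lower with ASO1 (log2 fold change −4.59, adjusted p = 0.00482 by limma). The list as a whole had 4 positive and 2 negative changes with ASO1, with a median of 0.21. Its summed level was 16.41 to 18.82 in ASO1 hearts, 16.72 to 18.55 in ASO2 hearts and 13.97 to 18.75 in CTRL ASO hearts. Of the atrial forms among the 40, Myl4 did not pass and Myl7 lay below background on all arrays. The summed level of 5 macrophage markers, of which 2 to 5 lay above background on the ASO1 arrays, 5 on the ASO2 arrays and 3 to 5 on the CTRL ASO arrays, was 10.43 to 13.03 in ASO1 hearts, 13.02 to 13.09 in ASO2 hearts and 11.27 to 12.27 in CTRL ASO hearts. That of 6 smooth muscle markers, of which 5 lay above background on the OMA1 ASO arrays and 4 to 5 on the CTRL ASO arrays, was 12.79 to 13.41 in ASO1 hearts, 11.83 to 12.64 in ASO2 hearts and 12.64 to 15.21 in CTRL ASO hearts. The smooth muscle sum followed Acta2, its brightest member, which had a log2 fold change of −1.93 with ASO2 (adjusted p = 0.0427 by limma), while the 6 markers had 3 positive and 3 negative changes with ASO2 and a median of 0.0083. With ASO1, 4 of the 6 were positive, with a median of 0.90. In the ASO2 hearts, in which Xirp2 was lower, the summed level of 2 red cell markers was 8.04 to 8.57, against 7.50 to 7.89 in CTRL ASO hearts. Of these 2 markers, 1 to 2 lay above background on the ASO2 arrays and 1 on each CTRL ASO array. The summed level of 6 fibroblast markers was 18.71 to 19.00 in ASO2 hearts, against 17.77 to 18.85 in CTRL ASO hearts. Between ASO2 and CTRL ASO hearts the fibroblast ranges overlapped, and the macrophage and red cell ranges did not. In ASO1 hearts the macrophage range and the red cell range (7.14 to 8.03) both overlapped those of CTRL ASO hearts. The summed level of the cardiomyocyte markers was 21.70 to 21.81 in ASO1 hearts, 21.70 to 21.80 in ASO2 hearts and 21.70 to 21.82 in CTRL ASO hearts. The part of the other cells in the changes of Myot, Xirp2 and Cmya5 was not tested.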

How the data were processed

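RNA of 13 hearts was hybridized to Clariom S Mouse arrays, 1 array per mouse. Values are log2 signals as the authors deposited them, produced in Transcriptome Analysis Console with its defaults by SST-RMA at the gene level, a method that subtracts background, normalizes between arrays and combines the probes of a cluster. For the annotation of the array, the genome build was not given in the sources used here. Of 28846 deposited probe sets, 6640 control probe sets were left out and 22206 clusters were tested, with no filter on low signals. Each gene was read by its brightest cluster.

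The linear models used limma 3.58.1 in R 4.3.3, and p-values were adjusted by Benjamini-Hochberg over all 22206 clusters, with an adjusted p under 0.01, a q threshold the study used, as a call. The pooled comparison set 8 OMA1 ASO arrays against 5 CTRL ASO arrays. For single ASOs, 1 model with a mean for each of the 3 groups and a common spread was fitted. Myot was also tested by a two-sided exact permutation of the arrays. The fit was tested on simulated data. Precision is limited by the number of arrays.

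The 40 genes, the other lists and the rule for named genes were chosen with earlier results of these data known. Values in every array are given for Myot, for genes of the 40 called in any comparison, for the 8 with the smallest p in the pooled comparison, for Myh6, Myh7, Acta1 and Ankrd1, and for the gene with the largest difference between the ASOs. From the other sarcomere list, called genes and up to 4 more by p are named. Nebl, Xirp1, Myl1 and Myl3 are outside this rule and were picked once their values had been seen. Of that list, 52 genes were analysed here.

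As alternatives, the fits were repeated with a mean-variance trend and robust fitting, renewed quantile normalization, centring on the median, a filter on low signals, array weights, the replicate number as a block, 3 Y-linked genes as a covariate, equal weight of both ASOs, only the groups compared, each array left out in turn and, chosen after seeing the data, both OMA1 ASO1 arrays that stand apart left out. Promoters of 300 bases came from RefSeq (GRCm38.p6).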

Additional observations from a re-analysis of the deposited data

Results flagged for a closer look

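In groups of 5 hearts, 12 of 80 combinations of gene and treatment had 1 array far from the other 4 by Dixon's test, which chance flags in about 1 in 20 groups, and the genes are not independent of each other. On OMA1 ASO1 replicate 5 there were 5, all above the other ASO1 arrays: Myot at 13.96 (others 10.98 to 11.71), Xirp1 at 14.60 (others 9.89 to 11.01), Csrp3 at 16.69 (others 15.74 to 15.95), Des at 16.11 (others 15.32 to 15.53) and Tnnt2 at 19.83 (others 19.73 to 19.75). The Tnnt2 value equalled the highest signal of any cluster on that array, where the range of the array limits what can be read. On OMA1 ASO1 replicate 1 there were 3, the fast skeletal genes Tnnt3 at 11.16 (others 4.10 to 4.32), Tnni2 at 9.63 (others 3.63 to 4.87) and Mylpf at 8.99 (others 3.44 to 4.08). On OMA1 ASO1 replicate 4, Myoz2 at 18.78 (others 19.00 to 19.03) and Tnni3 at 18.01 (others 18.19 to 18.25) were low. On CTRL ASO replicate 5, Cryab at 16.85 (others 17.52 to 17.70) was low and Myl4 at 8.84 (others 7.82 to 7.98) was high.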

How the results depend on the processing

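Of the 40 genes, 1 was called in the pooled comparison under all 23 alternatives run, and in each it was Myot. Its log2 fold change, taken over 22 of these, was 2.11 to 2.55 (adjusted p = 1.36e-05 to 0.00577 from limma). By exact permutation the difference was 2.12 to 2.55 log2 units with each array left out in turn. With ASO1 the count of 1 was 0 with a mean-variance trend and robust fitting and 0 with only the groups compared, and it was 0 to 1 with each array left out. With ASO2 the count of 1 was 2 with array weights, 2 with only the groups compared and 2 without both OMA1 ASO1 arrays that stand apart, and it was 0 to 2 with each array left out. With the Y-linked genes as a covariate it stayed 1, but the gene changed. Myot was called there (adjusted p = 0.00823 by limma) and Xirp2 was not (adjusted p = 0.0253). ASO2 against ASO1 called 0 of the 40 under every alternative run. The pooled change of Ankrd1 (−0.06) was −0.18 to 0.042 with each array left out, and above 0 without CTRL ASO replicate 4 (0.026) or OMA1 ASO1 replicate 1. Same-numbered arrays of different treatments had correlations of −0.112 to 0.178 of their deviations over 11 pairs, 3 of them over 0.1. Of 13 arrays, 5 correlated best with their own number. These values do not settle whether the numbers pair the hearts. With the replicate number as a block, 2 of the 40 were called with ASO2 (Myot and Xirp2) and 14 clusters of all differed between the ASOs. Over all clusters, the pooled count of 230 was 142 without CTRL ASO replicate 2 and 149 without CTRL ASO replicate 4. The ASO2 count of 169 was 107 with the Y-linked covariate and 96 to 269 with each array left out. The ASO2 against ASO1 count of 23 was 39 with a trend and robust fitting, 9 with only the groups compared and 8 to 38 with each array left out. The cause of these differences was not tested. Signals within 1 log2 unit of the highest on an array and signals below background limit what could be measured.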
